A study of Mus musculus with 8 samples.

Results

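The messenger RNAs of 10 genes of the cell cycle were followed through an RNA immunoprecipitation sequencing (RIP-seq) experiment on the embryonic mouse cortex: those of 5 cyclins, 1 cyclin-dependent kinase (Cdk), 2 genes commonly read as marks of proliferating cells and 2 Cdk inhibitors. They were chosen by name and Ensembl gene ID, and all 10 of them, among the 54838 gene IDs of the count tables, were counted in every library. The pull-down with an antibody raised in rabbit against Exosc10, a nuclease of the RNA exosome, was sequenced in 4 libraries, and a mock pull-down with normal rabbit IgG in another 4. All libraries were made from dissociated cortical cells of C57BL/6 mouse embryos at embryonic day 12.5, and the labels name no treatment, no altered gene and no number of embryos per library. Neither group is a sample of the whole RNA of the cells, so each value is a share of what a pull-down contained, and a higher share does not tell whether more of an RNA was recovered. In such a bulk lysate a smaller number of cells of one type and less of an RNA per cell cannot be told apart.

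Progression through the cell cycle is driven by Cdks, which are active only when bound to a cyclin. D cyclins act with Cdk4 and Cdk6 in G1 phase, E cyclins act with Cdk2 at entry into S phase, A cyclins act through S phase and G2, and B cyclins act with Cdk1 in mitosis. The inhibitors of the Cip/Kip family bind such complexes and hold cells in G1 or out of the cycle. At this stage the cortex is built mainly of dividing neuroepithelial cells and radial glia, which produce the first neurons, so that transcripts of both dividing and exiting cells are present.

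Between 21731971 and 34506709 reads were counted per Exosc10 library, and between 20967743 and 30199449 per IgG library. Of the 54838 genes, 16716 had enough counts to be tested, the 10 cell cycle genes among them. The lowest count of any of the 10 in any library was 931 reads, for which counting error alone is 3.28% of the value. Levels are given as CPM, the counts divided by the library total in units of 1000000 after edgeR's TMM scaling (trimmed mean of M-values). They are not divided by transcript length, so they are compared between libraries and not between genes.

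The pull-downs differed for 2 of the 10 genes, both of them cyclins, and in opposite directions. Ccne1, which encodes cyclin E1, was 2.52-fold higher in the Exosc10 pull-down. Ccnd2, which encodes cyclin D2, was 1.59-fold lower in it. The other 8 genes, Ccnd1, Ccna2, Ccnb1, Cdk1, Mki67, Top2a, Cdkn1b and Cdkn1c, had adjusted p-values of 0.133 to 0.760 by the quasi-likelihood test of edgeR, which is read at 0.05, and were not called. Thus 1 of 10 was called higher, where 7.92% of all tested genes were, and 1 of 10 was called lower, where 5.82% were. Among the 4234 tested genes whose mean level lay within the range of the 10, at 66.3 to 1629 CPM, the shares were 14.4% higher and 6.14% lower. The counts of calls are therefore near the background. The median log2 fold change of the 10 was 0.02, against -0.03 over all tested genes and 0.09 over those in the same range of levels, and 5 of the 10 fold changes were above 0 and 5 below it.

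**Figure D1:**
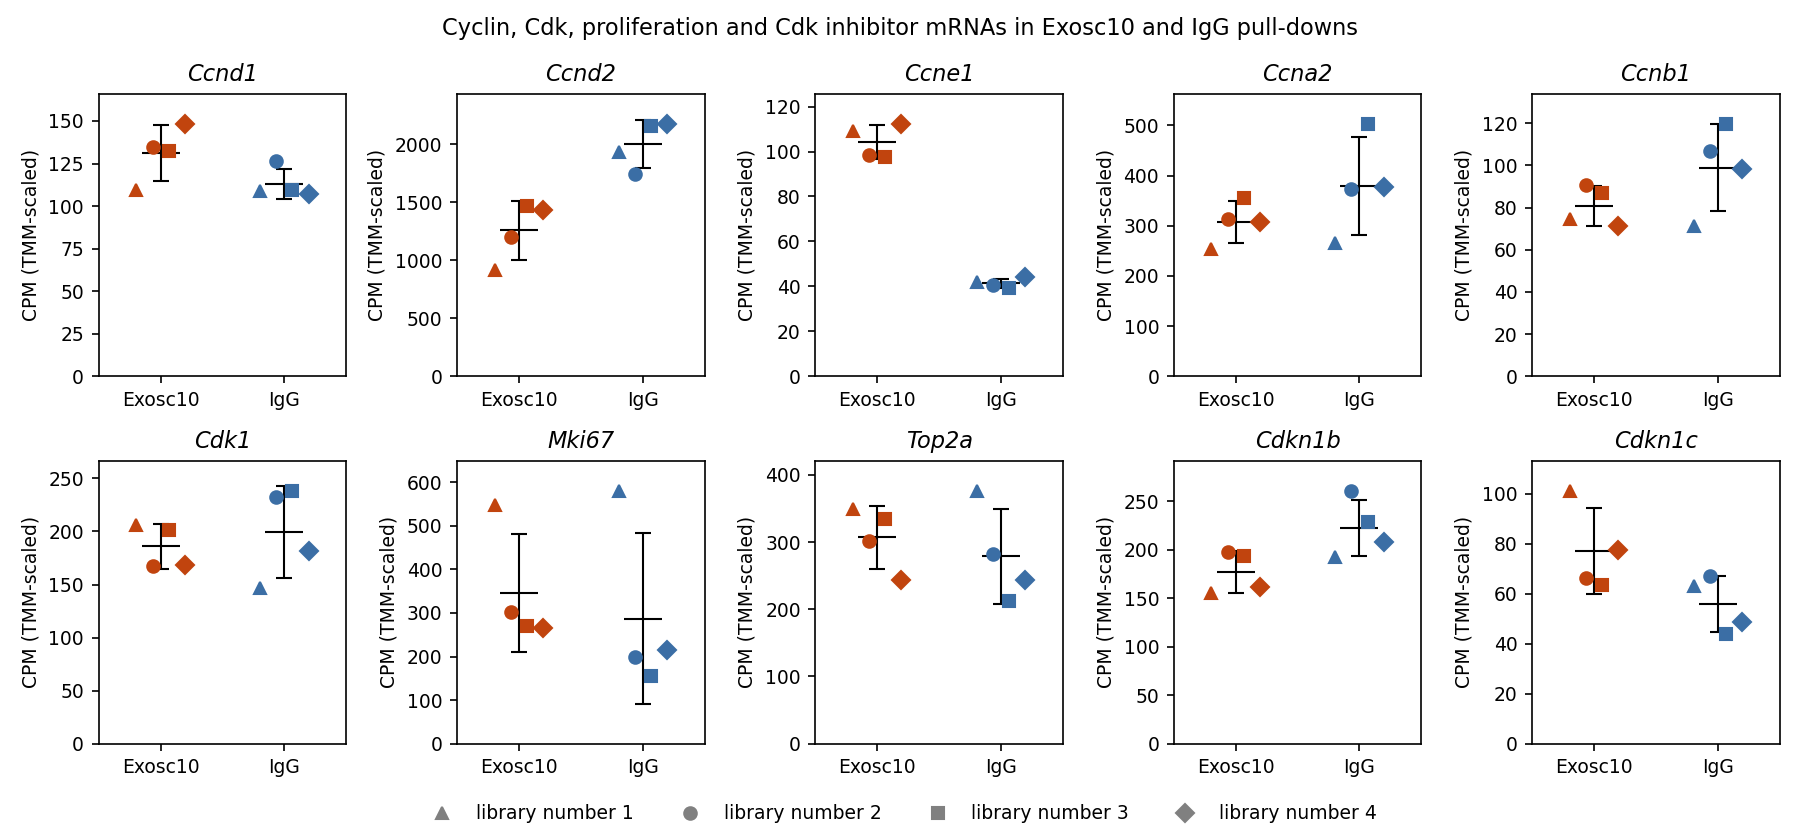
Level of each of the 10 mRNAs in every library, in TMM-scaled CPM on axes that start at 0, with the 4 Exosc10 libraries left of the 4 IgG libraries. Symbols give the library number, and black bars the mean and SD of a group (n = 4). Ccne1 lies between 97.5 and 112 CPM in Exosc10 libraries and between 39.1 and 43.9 CPM in IgG libraries, and for Mki67 the library numbered 1 is far above the other libraries in both groups.

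The D cyclins are the first to accumulate when a cell is instructed to divide. Ccnd2 (ENSMUSG00000000184, on chromosome 6 from 127125162 to 127152188 of GRCm38) encodes a D cyclin whose mRNA is known to be carried to the basal endfoot of mouse radial glia. It stood at 918, 1203, 1470 and 1434 CPM in Exosc10 libraries 1 to 4, against 1933, 1744, 2154 and 2176 CPM in IgG libraries 1 to 4. Every Exosc10 library was below every IgG library. Exosc10 libraries averaged 1256 ± 255 CPM and IgG libraries 2002 ± 204 CPM (SD, n = 4 each). This is a log2 fold change of -0.67 ± 0.19 (SE), whose 95% confidence interval runs from -1.09 to -0.26 (edgeR adjusted p = 0.0346). The call was close to the threshold. It was lost without Exosc10 library 2 (edgeR adjusted p = 0.103) or library 4 (0.0700), without IgG library 2 (0.0553), library 3 (0.0919) or library 4 (0.103), and with no filter on low counts (0.0690), while the log2 fold change stayed between -0.76 and -0.54 in all 16 alternatives.

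In read counts, not divided by transcript length, Ccnd2 took more than all the other genes together in every IgG library. Its share of the reads of the 10 was 32.5%, 41.8%, 45.9% and 48.0% in Exosc10 libraries 1 to 4, against 51.2%, 50.8%, 56.6% and 58.8% in IgG libraries 1 to 4. The 10 genes together took 0.280% to 0.312% of all counts in the Exosc10 libraries and 0.342% to 0.402% in the IgG libraries, and these ranges do not overlap. Without Ccnd2, the other 9 took 0.154% to 0.189% in the Exosc10 libraries and 0.154% to 0.196% in the IgG libraries. These ranges overlap, so that the sum of the 10 was apart only with Ccnd2 in it. A lncRNA gene, 9330179D12Rik, overlaps the locus of Ccnd2 in RefSeq, and reads in the shared stretch could have been given to either or to neither. The same holds for LTO1 at the locus of Ccnd1 and a snoRNA gene within that of Top2a.

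Ccnd1 (ENSMUSG00000070348, chromosome 7, 144929931 to 144939831) encodes cyclin D1, the other D cyclin of cortical progenitors and likewise a partner of Cdk4 and Cdk6. It was at 109, 135, 132 and 148 CPM in the Exosc10 libraries and at 109, 126, 110 and 107 CPM in the IgG libraries. The groups overlap, since Exosc10 library 1 lies among the IgG values. A log2 fold change of 0.22 ± 0.16 (SE) resulted, with -0.14 and 0.57 as the ends of its interval (edgeR adjusted p = 0.398). An increase of up to 1.48-fold or a decrease to 0.911 of the IgG level lies within that interval. With limma-voom and sample weights it passed, at an adjusted p of 0.0483. That setting called 38.1% of all tested genes, against 13.7% in the main test.

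The D cyclins could be set against each other without any scaling of the libraries, by the ratio of their read counts within a library. The ratio of Ccnd1 to Ccnd2 was 0.119, 0.112, 0.0901 and 0.103 in Exosc10 libraries 1 to 4 and 0.0564, 0.0725, 0.0509 and 0.0491 in IgG libraries 1 to 4. All Exosc10 values were above all IgG values. On the log2 scale the ratio averaged -3.24 ± 0.17 in the Exosc10 and -4.14 ± 0.25 in the IgG libraries (SD, n = 4 each), a difference of 0.90 or 1.87-fold. This difference is given without a test, as are the other ratios, because the genes were chosen with results of these data known.

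Among the later cyclins, Ccne1 stood apart. Ccne1 (ENSMUSG00000002068, chromosome 7, 38097984 to 38107490) encodes the cyclin that activates Cdk2 when a cell commits to DNA replication, and its level is known to peak around entry into S phase. It was at 109, 98.5, 97.5 and 112 CPM in Exosc10 libraries 1 to 4, against 41.8, 40.7, 39.1 and 43.9 CPM in IgG libraries 1 to 4. The lowest Exosc10 library was well above the highest IgG library. Exosc10 libraries averaged 104 ± 7.5 CPM and IgG libraries 41.4 ± 2.0 CPM (SD, n = 4 each). On the log2 scale the fold change was 1.33 ± 0.15 (SE) and its interval 1.01 to 1.66 (edgeR adjusted p = 0.000606). By size it ranked 141 from the top among the 16716 tested genes, and 2.08% of tested genes had a larger difference in either direction. The call held in all 16 alternatives, with a log2 fold change of 1.26 to 1.37 and an adjusted p of at most 0.00568.

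Groups that do not overlap are common in these data. Over all tested genes the Exosc10 libraries were all higher in 10.6% and all lower in 8.45%, so that 1 gene of each kind among the 10, Ccne1 and Ccnd2, is near the background too. The other 8 genes overlapped between the groups.

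**Figure D2:**
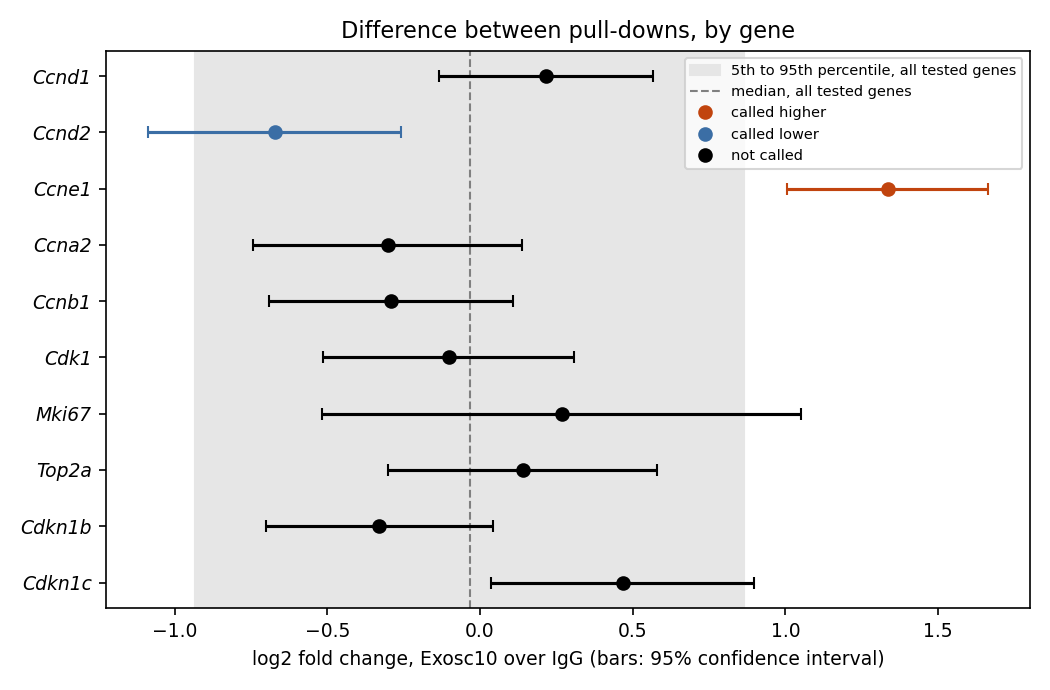
Log2 fold change of each gene, Exosc10 over IgG, from edgeR, with its 95% confidence interval. The grey band spans the 5th to 95th percentile of all 16716 tested genes, -0.93 to 0.86, and the dashed line their median. The interval of Ccne1, 1.01 to 1.66, lies to the right of the band, that of Ccnd2 lies left of 0, and of the 8 others only that of Cdkn1c excludes 0.

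Ccna2 (ENSMUSG00000027715, chromosome 3, 36564865 to 36573038), which encodes the A cyclin of S phase and G2, was at 254, 313, 356 and 308 CPM in the Exosc10 libraries and at 265, 373, 503 and 377 CPM in the IgG libraries. Its log2 fold change was -0.30 ± 0.21 (SE, edgeR adjusted p = 0.342), and -0.14 without IgG library 3, and the groups overlapped through IgG library 1. In RefSeq the end of its locus overlaps Exosc9, which encodes a subunit of the same RNA exosome, and the division of reads between them is not known. Ccnb1 (ENSMUSG00000041431, chromosome 13, 100778739 to 100786486), the mitotic cyclin, was at 74.5, 90.9, 86.7 and 71.2 CPM in the Exosc10 libraries and at 71.1, 107, 120 and 98.2 CPM in the IgG libraries. IgG library 1 lay just below the lowest Exosc10 library, and the other IgG libraries above all Exosc10 libraries. Its log2 fold change of -0.29 ± 0.19 (SE) did not pass (edgeR adjusted p = 0.308). Without both libraries numbered 1 it was -0.39 (edgeR adjusted p = 0.0429), which passes the threshold, in a setting that called 32.2% of all tested genes, against 13.7% in the main test.

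Cdk1 (ENSMUSG00000019942, chromosome 10, 69335146 to 69352912) is the kinase that Ccnb1 activates at entry into mitosis. It was at 206, 168, 202 and 168 CPM in the Exosc10 libraries and at 146, 232, 238 and 182 CPM in the IgG libraries, with the Exosc10 values inside the IgG range. Its log2 fold change was the smallest in size of the 10, at -0.10 ± 0.19 (SE), between -0.51 and 0.31 by its interval (edgeR adjusted p = 0.760). Without IgG library 1 it was -0.22 and without IgG library 3 -0.0074, not called in either. Differences beyond 0.700 or 1.24 of the IgG level lie outside that interval.

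Within a library, the read counts of Ccna2, Ccnb1 and Cdk1 stood in ratios that overlapped between the pull-downs, while the ratio of Ccne1 to Ccna2 did not overlap. The ratio of Ccna2 to Ccnb1 was 3.41 to 4.32 in Exosc10 and 3.49 to 4.20 in IgG libraries, a mean log2 difference of -0.0019. The ratio of Ccnb1 to Cdk1 was 0.361 to 0.542 in Exosc10 and 0.461 to 0.540 in IgG libraries, which overlap. The ratio of Ccne1 to Ccna2 was 0.430, 0.314, 0.274 and 0.365 in Exosc10 libraries 1 to 4 and 0.157, 0.109, 0.0778 and 0.117 in IgG libraries 1 to 4. These groups do not overlap, and the mean difference was 1.61 on the log2 scale, or 3.05-fold.

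Mki67 and Top2a are read as marks of dividing cells. Mki67 (ENSMUSG00000031004, chromosome 7, 135689784 to 135716450) encodes Ki-67, a protein that coats mitotic chromosomes. It was at 547, 302, 269 and 265 CPM in Exosc10 libraries 1 to 4 and at 579, 199, 155 and 216 CPM in IgG libraries 1 to 4. The library numbered 1 of each group was the highest by far, and among the libraries numbered 2 to 4 every Exosc10 value was above every IgG value. Over all libraries its log2 fold change came to 0.27 ± 0.37 (SE), the largest SE of the 10 genes, and the interval reached from -0.52 to 1.05 (edgeR adjusted p = 0.664). The outcome rested on the libraries numbered 1: the log2 fold change was 0.55 without both of them (edgeR adjusted p = 0.00959), 0.87 without IgG library 1 (0.0302) and -0.030 without Exosc10 library 1 (0.967). Of all tested genes, 32.2% were called without both libraries numbered 1 and 23.7% without IgG library 1, against 13.7% in the main test. What set the libraries numbered 1 apart was not tested.

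Top2a (ENSMUSG00000020914, chromosome 11, 98992947 to 99024199) encodes topoisomerase II alpha, which untangles DNA before chromosomes separate. It was at 349, 302, 334 and 243 CPM in the Exosc10 libraries and at 375, 283, 212 and 244 CPM in the IgG libraries. The highest value was again in IgG library 1, and the groups overlapped. With all libraries, its log2 fold change came to 0.14 ± 0.21 (SE, edgeR adjusted p = 0.686), and it was 0.32 without IgG library 1 and 0.033 without IgG library 3, not called in either. The ratio of Mki67 to Top2a was 1.57 in Exosc10 library 1 and 0.806 to 1.09 in the other Exosc10 libraries, and it was 1.54 in IgG library 1 and 0.703 to 0.884 in the other IgG libraries. In both groups the library numbered 1 thus had the highest ratio.

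Some of the genes also varied together across the 8 libraries. Mki67 and Top2a had a Pearson r of 0.85 for log2 CPM over these libraries, and Ccna2 and Ccnb1 one of 0.91. Mki67 and Ccna2 ran opposite to each other, with an r of -0.93. After the mean of its own group was taken from each value, these were 0.84, 0.88 and -0.93 over both groups together, and without the libraries numbered 1, over 6 libraries, 0.53, 0.64 and -0.85. The points share their libraries, and the values are a description. Of the 45 pairs among the 10 genes, 18 had an r above 0 and 27 below it.

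**Figure D3:**
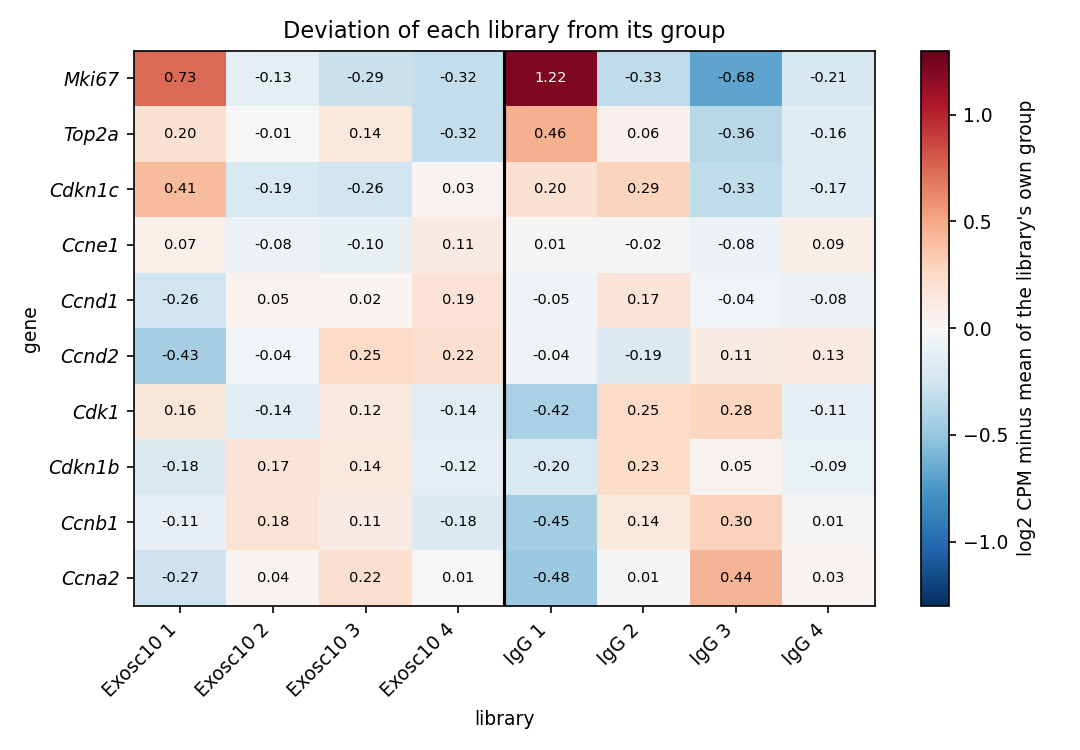
Deviation of each library from the mean of its own group, in log2 CPM, for the 10 genes (rows) in 4 Exosc10 and 4 IgG libraries (columns), with a red cell above and a blue cell below that mean. Mki67 is at 0.73 in Exosc10 library 1 and at 1.22 in IgG library 1, where Ccna2 is at -0.27 and -0.48, and no cell of Ccne1 is beyond 0.11 in size.

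The promoters of Mki67, Top2a, Ccnb1 and Cdk1 are shown because these are known as genes expressed in G2 and mitosis. Across the libraries Mki67 and Top2a varied together (r of 0.85), and so did Ccnb1 and Cdk1 (0.72). Pairs of a gene of the former with a gene of the latter had an r of -0.84 to -0.40. Without the libraries numbered 1, r was taken for deviations from group means over 6 libraries. It was then -0.33 for Mki67 with Ccnb1 and -0.65 for Mki67 with Cdk1. For Top2a it was 0.29 with Ccnb1 and 0.28 with Cdk1, a change of sign. Promoters of genes of G2 and mitosis commonly carry CCAAT boxes, bound by NF-Y, and the cell cycle genes homology region, of which TTTGAA is a known form. Each sequence is the 250 bases before a RefSeq start site, 5′ to 3′ on the strand of the gene, which is the minus strand for all 4. The loci given above for Mki67 and Top2a reach into their windows, to 135716450 and 99024199. The last bases of these windows thus lie within the locus, while the windows of Ccnb1 and Cdk1 begin where the locus ends. They lie in GRCm38.p6 at chr7:135716380-135716629 for Mki67, chr11:99024190-99024439 for Top2a, chr13:100786487-100786736 for Ccnb1 and chr10:69352913-69353162 for Cdk1. Capitals mark CCAAT or its reverse complement ATTGG, and TTTGAA or its reverse complement TTCAAA.
Mki67: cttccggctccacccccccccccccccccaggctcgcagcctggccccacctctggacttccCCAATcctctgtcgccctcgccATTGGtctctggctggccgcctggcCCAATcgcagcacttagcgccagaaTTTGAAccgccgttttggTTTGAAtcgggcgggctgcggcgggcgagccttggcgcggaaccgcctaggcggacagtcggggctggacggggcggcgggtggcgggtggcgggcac
Top2a: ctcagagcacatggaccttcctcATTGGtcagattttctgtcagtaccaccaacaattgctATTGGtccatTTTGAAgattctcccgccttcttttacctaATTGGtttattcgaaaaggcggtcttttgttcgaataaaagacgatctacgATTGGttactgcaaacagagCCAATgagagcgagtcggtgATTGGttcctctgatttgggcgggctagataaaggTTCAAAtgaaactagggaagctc
Ccnb1: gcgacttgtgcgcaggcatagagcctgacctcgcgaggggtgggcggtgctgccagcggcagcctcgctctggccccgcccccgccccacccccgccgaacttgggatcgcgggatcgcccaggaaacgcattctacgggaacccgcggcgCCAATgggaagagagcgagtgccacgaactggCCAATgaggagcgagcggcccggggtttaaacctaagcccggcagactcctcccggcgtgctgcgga
Cdk1: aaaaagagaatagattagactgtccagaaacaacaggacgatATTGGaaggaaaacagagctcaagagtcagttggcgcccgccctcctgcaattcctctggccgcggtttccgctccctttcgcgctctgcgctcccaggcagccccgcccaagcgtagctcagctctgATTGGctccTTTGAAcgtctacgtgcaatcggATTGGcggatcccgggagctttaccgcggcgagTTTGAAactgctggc
CCAAT, read on both strands, was found 3 times for Mki67, 6 times for Top2a, 2 times for Ccnb1 and 3 times for Cdk1, and 33.8% of all 32851 windows of this length in the table hold it. TTTGAA, read on both strands, was found 2 times each for Mki67, Top2a and Cdk1 and 0 times for Ccnb1, against 16.0% of all windows. Only these exact letters were searched for, so 0 matches do not show that Ccnb1 lacks the element. No match of one motif overlapped a match of the other. Mki67, Top2a and Cdk1 hold both motifs, and the r of Mki67 was 0.85 with Top2a and -0.60 with Cdk1. Whether the motifs bear on these levels was not tested. The matches are letters in a window, and RIP-seq measured neither promoter activity nor binding to DNA.

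The Cdk inhibitors of the Cip/Kip family, which promote exit from the cycle and are expressed as cortical cells become neurons, leaned in opposite directions without passing the test. Cdkn1b (ENSMUSG00000003031, chromosome 6, 134920401 to 134925525) encodes p27. It was at 155, 198, 194 and 162 CPM in the Exosc10 libraries and at 193, 260, 229 and 208 CPM in the IgG libraries, where only IgG library 1 lies within the Exosc10 range. Its log2 fold change of -0.33 ± 0.17 (SE) had an interval that just included 0, from -0.70 to 0.04 (edgeR adjusted p = 0.216). Cdkn1c (ENSMUSG00000037664, chromosome 7, 143458339 to 143461059) encodes p57 and is an imprinted gene, read mainly from the maternal copy. It was at 101, 66.2, 63.3 and 77.5 CPM in the Exosc10 libraries and at 63.1, 67.2, 43.7 and 48.8 CPM in the IgG libraries, and the groups overlapped because IgG library 2 lay above Exosc10 libraries 2 and 3. Its log2 fold change of 0.47 ± 0.20 (SE) had an interval above 0, from 0.04 to 0.90, and an unadjusted p of 0.0353, but the edgeR adjusted p was 0.133. It passed with limma-voom and sample weights, at an adjusted p of 0.0143, a setting that called 38.1% of all tested genes, against 13.7% in the main test.

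The ratio of Cdkn1c to Cdkn1b within a library was 0.651, 0.334, 0.327 and 0.479 in Exosc10 libraries 1 to 4 and 0.327, 0.258, 0.191 and 0.234 in IgG libraries 1 to 4. The groups touch, with 0.32705 in Exosc10 library 3 and 0.32690 in IgG library 1, a gap within counting error. The mean log2 difference was 0.79, or 1.73-fold, against SDs of 0.47 among Exosc10 and 0.32 among IgG libraries (n = 4 each). An inhibitor was also set against a cyclin. The ratio of Cdkn1b to Ccnd1 was 1.42, 1.47, 1.46 and 1.09 in the Exosc10 libraries and 1.77, 2.06, 2.09 and 1.95 in the IgG libraries, lower in all Exosc10 libraries, by 0.54 on the log2 scale. Exosc10 library 4 lay far from the others of its group, and without it the log2 difference was -0.44. Neither Cdkn1b nor Ccnd1 was called, and how often ratios of other genes do not overlap was not counted.

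**Figure D4:**
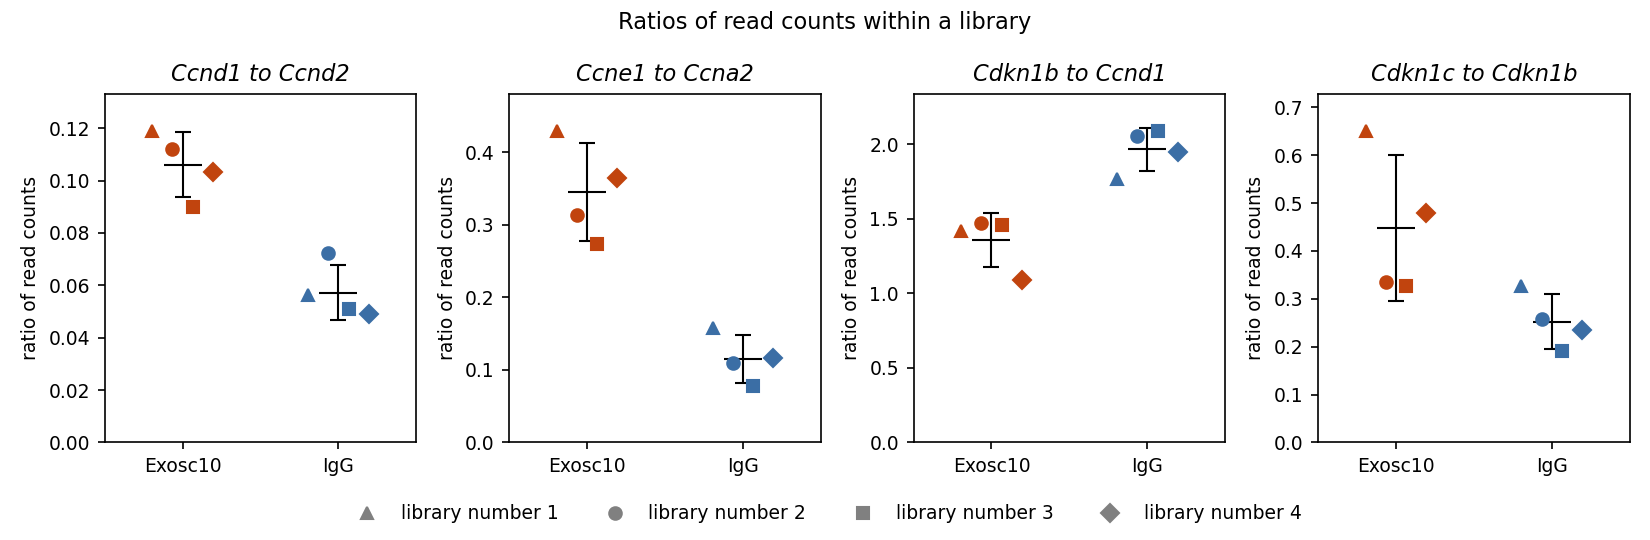
Ratio of the read counts of 2 genes within each library, which needs no scaling, with axes that start at 0. Shown are 4 of the 7 pairs, picked because their groups do not overlap. How often ratios of other genes do not overlap was not counted. The pairs of Ccnd1 to Ccnd2 and of Ccne1 to Ccna2 each hold a gene that was called. Exosc10 libraries stand left of IgG libraries, symbols give the library number and black bars the mean and SD (n = 4). The ratio of Ccne1 to Ccna2 is 0.274 or more in Exosc10 libraries and 0.157 or less in IgG libraries, while the ratios of Cdkn1c to Cdkn1b of Exosc10 library 3 and IgG library 1 are nearly equal.

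The wider cell cycle was described with the mouse marker sets that scran ships as Ensembl IDs, leaving out the genes above. Of 248 tested genes given to G1, 11 were called higher and 17 lower (4.44% and 6.85%), with a median log2 fold change of -0.11. The S set held 215 tested genes, of which 21 (9.77%) were called higher and 6 (2.79%) lower, with a median of 0.08. In the G2M set of 188 it was 19 (10.1%) higher and 10 (5.32%) lower, also with a median of 0.08. These shares stand beside 7.92% and 5.82% over all tested genes, and were not matched for level. By this rule Ccne1 and Cdkn1b fall under G1, and Ccnd1, Ccna2, Ccnb1, Cdk1 and Mki67 under G2M. Ccnd2, Top2a and Cdkn1c are in none of the pairs. The rule puts Ccnd1 under G2M although D cyclins act in G1, so a set is not a statement of when a gene acts. Ccne1 was called higher, as were 4.44% of the other tested genes under G1.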

How the data were processed

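The authors deposited 1 file per library with raw read counts for 54838 mouse Ensembl gene IDs and no normalization. Per the submitters' processing notes, featureCounts 1.5.0-p1, STAR 2.5.2a and bcl2fastq 2.17.1.14 were the tools, with build mm10. How strand, duplicates and multiply mapped reads were handled, and which annotation was used, is not given in the sources used here. Counts of overlapping or antisense genes may therefore be divided in ways that cannot be checked, and counting errors cover counting alone.

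Genes were kept by filterByExpr (minimum count 10, minimum total 15), scaled by TMM and tested with edgeR 4.0.16 in R 4.3.3 (quasi-likelihood F-test, no covariate, all 8 libraries). Benjamini-Hochberg adjustment covered all tested genes, with a threshold of 0.05. Log2 CPM used a prior count of 2. Alternatives were DESeq2 1.42.0, limma-voom (limma 3.58.1), other scalings, no filter, the replicate number as a block, and libraries left out. Phase sets were built from the marker pairs of scran 1.30.0.

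The genes and lists were chosen with earlier results of these data known, and the 10 genes are all named by rule. Symbols of the 10 IDs came with the choice of genes, and loci and promoters from RefSeq GRCm38.p6 by symbol. The table holds promoters of 6 of the 10. It pairs 0 of the 54838 IDs with symbols, so no other gene of the count tables is named by its values, and the check of Exosc10 itself, the tissue markers and the list of other cell cycle genes by symbol were not run. Nothing in the labels tells separate animals or cultures within a group, so p-values measure the spread between libraries, which may be technical.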

Additional observations from a re-analysis of the deposited data

Results flagged for a closer look

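Among 34 groups of 4 libraries, for the levels of the 10 genes and the 7 ratios, 4 held a library far from the other 3 by Dixon's test. Chance flags about 1 in 20 groups. For Mki67 the gap made up 0.869 of the range in the Exosc10 group, where library 1 stood at 547 CPM, and 0.856 in the IgG group, where library 1 stood at 579 CPM. For Ccnd1 it was 0.861 in the IgG group, where library 2 stood at 126 CPM and the others at 107 to 110 CPM. For the log2 ratio of Cdkn1b to Ccnd1 it was 0.884 in the Exosc10 group, where library 4 had a ratio of 1.09 and the others 1.42 to 1.47.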

How the results depend on the processing

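Over 16 alternatives and the 10 genes, 159 of 160 fold changes kept their direction, and 147 kept their direction and their side of the threshold, with 6 calls gained and 6 lost. The exception in direction was Mki67, at -0.030 without Exosc10 library 1, where it was not called. Ccne1 alone was called in every alternative. The main result was 1 gene higher, 1 lower and 13.7% of all tested genes called. With no filter it was 0 lower and 9.02%, with limma-voom 3 higher (Ccnd1, Ccne1 and Cdkn1c) and 38.1%, and without both libraries numbered 1 it was 2 higher (Ccne1 and Mki67), 2 lower (Ccnd2 and Ccnb1) and 32.2%. Mki67 was at 0.87 without IgG library 1, where it was called. Leaving out 1 library gave 1 to 2 higher, 0 to 1 lower and 5.20% to 23.7%, the highest without IgG library 1 and the lowest without Exosc10 library 4. The causes were not tested. Scaling by the upper quartile made 42.8% of all calls higher ones, against 57.6%, and left the calls of the 10 genes as they were.

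With the replicate block, 2 of the 10 were higher (Ccne1, and Cdkn1c at an edgeR adjusted p of 0.0379), 1 was lower and 26.9% of all genes were called. Deviations from the group mean, across all genes, correlated between same-numbered libraries at 0.344, 0.0948, 0.338 and 0.221 for numbers 1 to 4. One lies under 0.1, and the main test did not take the numbers as pairs. Each of the 8 libraries nevertheless had its best partner under its own number. The labels do not state a pairing, and these values neither establish nor exclude one.

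Adding 0.5 to the counts changed no ratio beyond the spread of its libraries. Leaving out each library, chosen after seeing the data, moved the log2 difference of Ccnb1 to Cdk1, -0.19, to between -0.30 and -0.10, that of Mki67 to Top2a, 0.24, to between 0.065 and 0.49, and that of Ccna2 to Ccnb1, -0.0019, to between -0.064 and 0.050, which includes a change of sign. The other 4 kept their sign. A gene without a call was not shown to be equal in both pull-downs.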
